A study of Mus musculus with 11 samples.

Results

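The genes described here are 10 genes by which regulatory T cells (Tregs) are commonly recognised. Foxp3, Ikzf2 and Ikzf4 encode transcription factors whose expression among T cells is largely confined to Tregs, while Il2ra, Ctla4, Tnfrsf4, Tnfrsf18, Icos, Ccr8 and Il10 are carried by Tregs and are also switched on by conventional T cells after activation. The members were taken by gene name, from a list drawn up with earlier results of these data known, and all 10 were found among the 49315 rows of the count table. They were followed gene by gene through 4 groups of mice that received either no toxin or a toxin directed at Tregs in different windows of neonatal life.

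Tregs restrain other immune cells, and Foxp3 is the transcription factor that establishes and holds their identity. They depend on IL-2 from other T cells, which they capture with the high-affinity IL-2 receptor that contains CD25, and they dampen neighbouring cells through surface CTLA4 and secreted IL-10 among other routes. In neonatal skin they accumulate soon after birth and are known to promote tolerance to commensal microbes. When Tregs are lost, conventional CD4+ and CD8+ T cells become activated and express many of the receptors that Tregs carry at rest, so transcripts of the second set can come from either population.

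Whole skin of 11 Foxp3-DTR mice on a C57BL/6J background, males and females, was profiled by bulk RNA-seq, with 1 mouse per library. Every mouse, controls included, carried the diphtheria toxin receptor (DTR) with GFP as part of the Foxp3 locus, so that the receptor is made only where Foxp3 is active and diphtheria toxin (DT) removes those cells. The control group (PBS, n = 2) received PBS. The ΔETreg group (EarlyDT, n = 3) received DT on postnatal day 6 (P6) and P8 and was harvested on P9. The ΔLTreg group (LateDT, n = 3) was given DT on P10 and P12, and the ΔTreg group (FullDT, n = 3) on P6, P8, P10 and P12, and both were harvested on P13. Each DT dose was 30 ng per g body weight. ΔTreg and ΔLTreg mice were therefore of equal age. The study describes its control comparisons as age-matched. The labels give no harvest day for the 2 control mice, so from the labels age and treatment cannot be told apart in comparisons with control, nor in those of ΔETreg with the P13 groups. The labels do not say whether females carried 1 or 2 copies of the DTR allele.

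Library totals ranged from 23377571 to 34159435 counts, and 3 counts, the floor used here, correspond to between 0.0891 and 0.129 CPM (the counts-per-million scale). Judged by Xist and Ddx3y, males numbered 1 of 2 in control, 2 of 3 in ΔETreg and 1 of 3 in both other groups. The tissue label was checked against skin markers, and in every library 8 keratinocyte, fibroblast and melanocyte genes (Krt14, Krt5, Krt10, Col1a1, Col1a2, Pdgfra, Tyr and Dct) summed to 15256 CPM or more. T cell markers were scarce in control skin, with the 16 genes of the T cell list summing to between 27.2 and 29.7 CPM. Skeletal muscle transcripts were variable within ΔLTreg, where 5 muscle genes summed to between 1306 and 4166 CPM against 1116 to 1215 in control.

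With 4 doses of DT, 7 of the 10 members rose and none fell. In ΔTreg against control skin the members called higher by edgeR's quasi-likelihood test (Benjamini-Hochberg adjusted p under 0.05) were Ikzf2, Il2ra, Tnfrsf4, Tnfrsf18, Icos, Ccr8 and Il10, where 12.1% of the 18375 genes tested were called higher. Against the age-matched ΔLTreg group 7 members were again called higher, with Ikzf4 in place of Ikzf2, beside 10.7% of all genes tested. Of the 3 Treg-restricted genes 1 was called in each of these comparisons, and of the 7 genes shared with activated T cells 6 were. The median log2 fold change against control was 0.83 for the restricted genes and 2.31 for the shared genes, against -0.01 for all genes tested. Restricted here refers to T cells, and which cells of whole skin held these transcripts was not tested. In control skin Ikzf2 had 179 and 132 counts beside 41 and 22 of Cd4. Foxp3 and Ctla4 passed the threshold in neither comparison. All 10 members passed the filter on low counts, but Icos and Il10 did so only through the ΔTreg libraries, so a difference for them was built into their being tested.

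**Figure D1:**
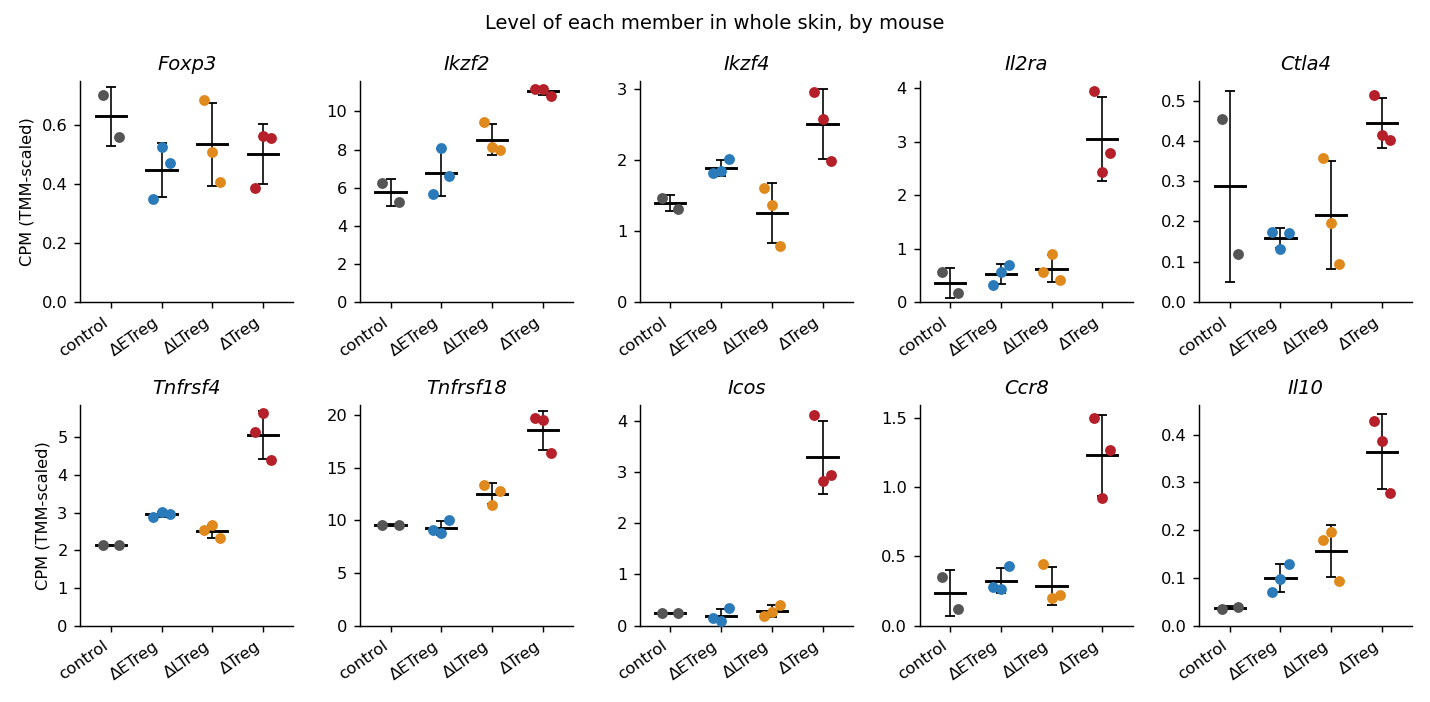
Level of each member by mouse, in CPM of the TMM-scaled library (y axis, from 0, a separate scale for each gene), in control (n = 2), ΔETreg, ΔLTreg and ΔTreg skin (n = 3 each). Points are mice, horizontal lines are group means and whiskers are SDs. For Ikzf2, Il2ra, Tnfrsf4, Tnfrsf18, Icos, Ccr8 and Il10 the 3 ΔTreg mice lie above the other 8 mice, while Foxp3 and Ctla4 overlap between control and ΔTreg.

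Foxp3 itself did not differ detectably between groups at the level of whole skin. The gene lies on chromosome X (chrX:7573644-7595245, plus strand, GRCm38). Control mice had 20 and 14 Foxp3 counts. The toxin-treated mice had 10, 16 and 11 (ΔETreg), 23, 13 and 13 (ΔLTreg) and 9, 19 and 18 (ΔTreg). Scaled to library size, control mouse 2 lay within the ΔTreg and ΔLTreg ranges, while all 3 ΔETreg mice lay below both controls. Mean levels were 0.629 CPM ± 0.101 (SD, n = 2) in control, 0.448 ± 0.0910 (n = 3) in ΔETreg, 0.534 ± 0.141 (n = 3) in ΔLTreg and 0.502 ± 0.101 (n = 3) in ΔTreg. The fitted fold over control was 0.810 in ΔTreg (95% confidence interval 0.502 to 1.31, edgeR adjusted p = 0.546), 0.851 in ΔLTreg (0.529 to 1.37) and 0.712 in ΔETreg (0.435 to 1.17). Against ΔLTreg the ΔTreg fold was 0.952 (0.618 to 1.47). A fall of Foxp3 to below 0.435 of control therefore lies outside all 3 intervals, and smaller falls could not be resolved at this depth. The intervals do not cover a difference in age from control or reads that belong to other genes, so they do not exclude a larger fall. Foxp3 transcripts in these libraries thus do not by themselves show a loss of Tregs. The labels name only the treatment, and the ΔTreg, ΔETreg and ΔLTreg names are those of the study. By flow cytometry the study reported efficient depletion of skin Tregs on P9 after the early doses and on P13 after the late doses. In annotated exons 31.5% of the bases of Foxp3 are shared with other genes (Ccdc22, Ppp1r3f and Gm36995 on the opposite strand and Flicr on the same strand), and because the strand setting of the counting is not stated, some of these few counts may belong to those genes. Reads carry no molecular identifiers, so floors and counting limits cover counting error only.

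Ikzf2 and Ikzf4, which encode the Ikaros-family factors Helios and Eos, were called lower in no DT group. They lie on chromosomes 1 (chr1:69531214-69687245, minus strand) and 10 (chr10:128630843-128645991, minus strand). Helios marks most thymus-derived Tregs and Eos acts as a partner of FOXP3 in gene silencing. Ikzf2 counts were 179 and 132 in control skin. ΔETreg mice had 163, 246 and 154, ΔLTreg mice 317, 208 and 254, and ΔTreg mice 261, 377 and 350. Scaled to library size the ΔTreg mice lay above the 8 other mice, at 11.1 CPM ± 0.215 (SD, n = 3) against 5.76 ± 0.715 (n = 2) in control. The rise was 1.92-fold over control (log2 0.94, SE 0.15, edgeR adjusted p = 0.00128). Against ΔLTreg, at 8.52 CPM ± 0.810 (n = 3), it was 1.30-fold with an adjusted p of 0.0696. Ikzf4 had 42 and 33 counts in control, 54, 35 and 25 in ΔLTreg and 69, 87 and 64 in ΔTreg. Its ΔTreg mice did not overlap either group, and its level was 1.98-fold that of ΔLTreg (log2 0.99, SE 0.24, adjusted p = 0.0165). This call was lost without ΔTreg mouse 1 (adjusted p = 0.0681) or mouse 2 (0.0553), and in a fit of these 2 groups alone (0.0606). Against control, log2 0.83, the adjusted p was 0.0517. In ΔETreg skin Ikzf4 had 52, 56 and 47 counts, or 1.89 CPM ± 0.109 (n = 3) beside 2.51 ± 0.495 in ΔTreg.

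Helios and Eos belong to a family of 5 zinc-finger factors, of which Ikaros (Ikzf1) and Aiolos (Ikzf3) are general lymphocyte genes. In ΔTreg skin 3 of the 5 were called higher than control, Ikzf1 at 3.04-fold (adjusted p = 0.000539), Ikzf3 at 4.52-fold (adjusted p = 0.000211) and Ikzf2. That was so for 12.1% of all genes tested. Ikzf5 was at 1.06-fold and was not called, and 84.5% of its exon bases are shared with other genes.

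The largest changes among the members were in genes shared between Tregs and activated T cells. Il2ra encodes CD25, the alpha chain that gives the IL-2 receptor its high affinity (chr2:11642807-11693193, plus strand). Control skin had 16 and 4 counts of it, ΔETreg 9, 17 and 16, ΔLTreg 19, 23 and 13, and ΔTreg 92, 82 and 90. All 3 ΔTreg mice stood clear of the other 8, whose 3 groups overlapped one another. Mean levels were 0.36 CPM ± 0.284 (SD, n = 2) in control and 3.05 ± 0.791 (n = 3) in ΔTreg, an 8.10-fold rise with a 95% confidence interval of 3.99 to 16.4 (adjusted p = 0.000976). Against ΔLTreg the rise was 4.92-fold (2.84 to 8.53, adjusted p = 0.00131). Leaving out control mouse 2 or 1 gave log2 changes of 2.42 and 4.21, and the call against control held in both cases.

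The other chains of the receptor rose with it. Il2rb, the beta chain, went from 104 and 72 counts in control to 454, 463 and 597 in ΔTreg (5.26-fold, adjusted p = 1.96e-05). Il2rg, the common gamma chain, went from 111 and 99 to 488, 603 and 627 (4.95-fold, adjusted p = 2.93e-05), although 30.5% of its exon bases are shared with another gene. Il2 had between 0 and 6 counts in every library and was not tested. Over all genes tested, 12.1% were called higher in ΔTreg than in control and 10.7% than in ΔLTreg. Of 8 genes that carry or restrain the signal below the IL-2 receptor, 7 were called higher in ΔTreg than in control and 7 than in ΔLTreg. They included the kinase gene Jak3 (2.65-fold over control) and the feedback inhibitors Cish (2.30-fold) and Socs1 (4.27-fold), with adjusted p-values of 1.44e-05, 1.30e-05 and 2.86e-05. Bcl2, a survival gene of the same list, was at 0.861-fold and was not called.

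Icos had the largest fitted fold of any member. ICOS is a costimulatory receptor of the CD28 family that is strongly induced on activated T cells and is constitutive on many tissue Tregs (chr1:60977927-61000320, plus strand). It was counted 7 and 6 times in control skin and 96, 95 and 95 times in ΔTreg skin, with 3 to 8 counts in ΔETreg (4, 3 and 8) and 6 to 13 in ΔLTreg (6, 7 and 13). The lowest ΔTreg mouse, at 2.82 CPM, was well above the highest of the other 8, at 0.407 CPM. The rise was 13.3-fold over control (95% confidence interval 7.18 to 24.5, adjusted p = 9.84e-05) and 11.3-fold over ΔLTreg (6.85 to 18.5, adjusted p = 4.27e-05). Icos passed the filter on low counts only through the ΔTreg libraries, so these p-values follow a selection on the same difference. Icosl, which encodes its ligand, rose 2.09-fold over control (adjusted p = 0.000145) and 1.35-fold over ΔLTreg (adjusted p = 0.0141). Icosl was also called higher in ΔLTreg than in control (1.54-fold, adjusted p = 0.0172), where Icos was at 1.18-fold and was not called.

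Ctla4 (chr1:60887000-60915832, plus strand) lies 62094 bases from Icos and did not pass the threshold. CTLA4 is the inhibitory counterpart of CD28 and is a constitutive Treg gene as well as an activation gene. Control skin gave 13 and 3 counts. ΔETreg gave 5, 4 and 4, ΔLTreg 12, 5 and 3, and ΔTreg 12, 14 and 13. The ΔTreg mice agreed closely, at 0.444 CPM ± 0.0614 (SD, n = 3), and lay above all ΔETreg and ΔLTreg mice, but control mouse 1 reached 0.455 CPM. The fold was 1.48 over control (0.663 to 3.29, adjusted p = 0.490), 1.98 over ΔLTreg (0.956 to 4.12, adjusted p = 0.191) and 2.73 over ΔETreg (1.23 to 6.06, adjusted p = 0.0691). Without control mouse 2 the log2 change against control was -0.059, and without control mouse 1 it was 1.84. Cd80 and Cd86, which encode the ligands that CTLA4 and CD28 compete for, and Cd28 were called higher in ΔTreg than in control (2.24-fold, 2.62-fold and 3.69-fold, with adjusted p = 0.0499, 0.00207 and 0.00391) and again than in ΔLTreg. The Cd80 call against control was lost when any 1 mouse was left out and the Cd28 call without control mouse 2, with log2 changes of 1.00 to 1.35 and 1.59.

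Tnfrsf4 and Tnfrsf18 encode OX40 and GITR, costimulatory receptors of the TNF receptor superfamily, and are neighbours on chromosome 4 (chr4:156013843-156016612 and chr4:156026164-156028895, plus strand, GRCm38), 9551 bases apart. Tnfrsf4 counts were 61 and 54 in control and 120, 190 and 142 in ΔTreg skin, and lay between 69 and 92 in ΔETreg (83, 92 and 69) and between 68 and 85 in ΔLTreg (85, 68 and 74). The ΔTreg mice averaged 5.06 CPM ± 0.630 (SD, n = 3) and lay above the others, 2.36-fold over control (adjusted p = 0.000201) and 2.02-fold over ΔLTreg (adjusted p = 0.000282). For Tnfrsf18 the counts were 273 and 241 in control and 459, 658 and 531 in ΔTreg. The ΔETreg mice had 260, 268 and 235 and the ΔLTreg mice 449, 292 and 408. The ΔLTreg mice lay between the others without overlap, with control and ΔETreg at 9.58 ± 0.0279 (n = 2) and 9.31 ± 0.668 CPM (n = 3), ΔLTreg at 12.5 ± 0.988 and ΔTreg at 18.5 ± 1.85. The rise in ΔTreg was 1.93-fold over control (adjusted p = 0.000147) and 1.48-fold over ΔLTreg (adjusted p = 0.00183). An antisense gene, Gm16008, covers 27.2% of the exon bases of Tnfrsf18, and without strand their reads cannot be told apart. Tnfsf18, the GITR ligand gene, had between 2 and 12 counts per library and was not called, and Tnfsf4, the OX40 ligand gene, had at most 4 counts and was not tested.

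Ccr8 encodes a chemokine receptor of skin-homing T cells and of tissue Tregs (chr9:120092114-120094906, plus strand). Control skin had 10 and 3 counts, ΔETreg 8, 8 and 10, ΔLTreg 15, 5 and 7, and ΔTreg 35, 31 and 41. The lowest ΔTreg mouse, at 0.921 CPM, exceeded the highest other mouse, at 0.447 CPM. The rise was 4.97-fold over control (2.48 to 9.98, adjusted p = 0.00436) and 4.08-fold over ΔLTreg (2.32 to 7.19, adjusted p = 0.00335). Without control mouse 2 the adjusted p against control was 0.0531, with a log2 change of 1.77. Genes of both of its mouse ligands rose as well. Ccl8 had 124 and 90 counts in control, 236, 125 and 81 in ΔLTreg and 1998, 1739 and 2256 in ΔTreg (17.3-fold over control, adjusted p = 2.93e-05, and 14.2-fold over ΔLTreg, adjusted p = 1.48e-05). Ccl1 had 4 and 0 counts in control, 6, 7 and 7 in ΔLTreg and 66, 44 and 52 in ΔTreg, 8.37-fold over ΔLTreg (adjusted p = 0.000632). Like Icos and Il10, Ccl1 passed the filter on low counts only through the ΔTreg libraries.

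Il10, the gene of the suppressive cytokine IL-10 (chr1:131019845-131024974, plus strand), had the fewest counts of any member in control skin. Each control mouse had 1 count. ΔETreg mice had 2, 3 and 3 counts and ΔLTreg mice 6, 5 and 3, while ΔTreg mice had 10, 13 and 9. No ΔTreg mouse overlapped the other 8, but Il10, like Icos, passed the filter on low counts only through the ΔTreg libraries. Control skin was at the floor of 3 counts, so the ΔTreg level of 0.364 CPM ± 0.0776 (SD, n = 3) was at least 3.24-fold higher (adjusted p = 0.00296). Against ΔLTreg the rise was 2.30-fold with an adjusted p of 0.0443, a call that was lost when any 1 ΔLTreg mouse was left out (adjusted p = 0.0598 to 0.165), with DESeq2 (0.326), with library size alone (0.0552) and without the filter (0.212). With DESeq2 the call against control was also lost (adjusted p = 0.0546). The receptor chain Il10ra rose 3.91-fold over control (adjusted p = 0.00352, lost without control mouse 2 at a log2 change of 1.72) and 2.83-fold over ΔLTreg (adjusted p = 0.00702), while Il10rb was at 1.19-fold and 1.15-fold and was not called.

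**Figure D2:**
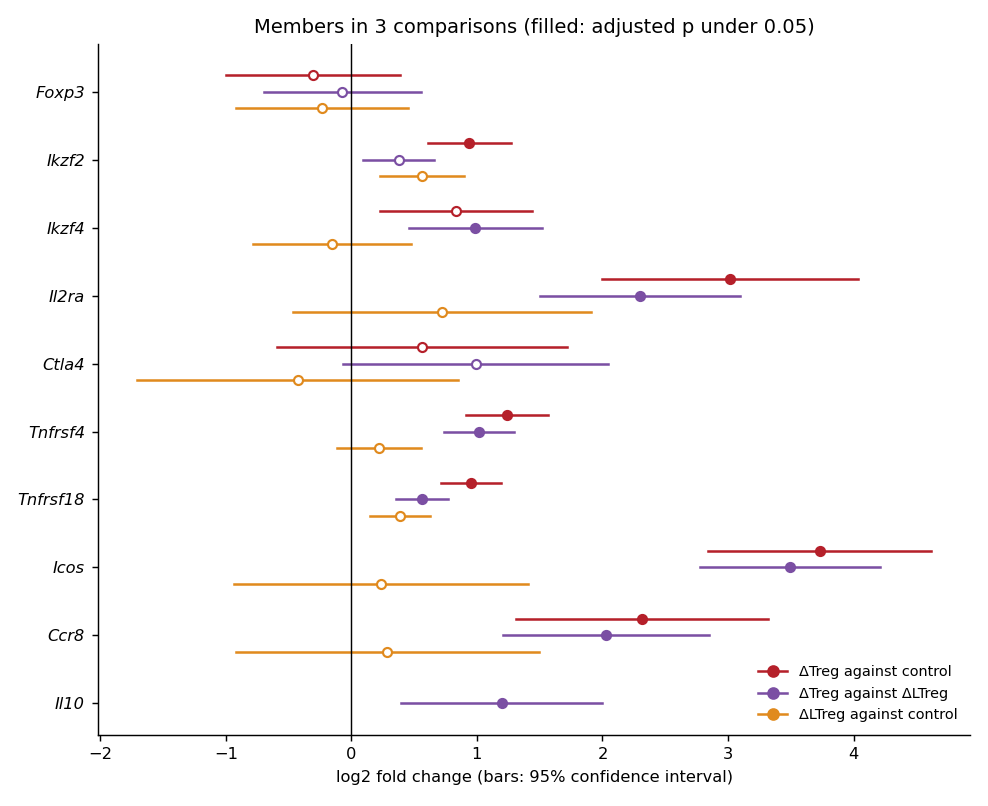
log2 fold change of each member (x axis) in ΔTreg against control (red), ΔTreg against ΔLTreg (purple) and ΔLTreg against control (orange), with 95% confidence intervals, filled where the edgeR adjusted p was under 0.05. Il2ra, Icos and Ccr8 lie above 2 in both ΔTreg comparisons, Foxp3 lies at -0.30, -0.07 and -0.23, and no point of ΔLTreg against control is filled. Il10 against control is not drawn because control skin was at the floor.

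Across the partners as a whole, 13 genes for ligands, co-receptors and partner chains of the members were listed and 11 had enough counts to be tested. Of these 9 were called higher in ΔTreg than in control, 9 than in ΔLTreg and 10 than in ΔETreg, and none was called lower. The shares called higher over all genes tested were 12.1%, 10.7% and 13.2%. Ccl1, which is among those called, was tested only because of the ΔTreg libraries. The median log2 change of the 11 genes was 1.88 against control and 1.69 against ΔLTreg.

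**Figure D3:**
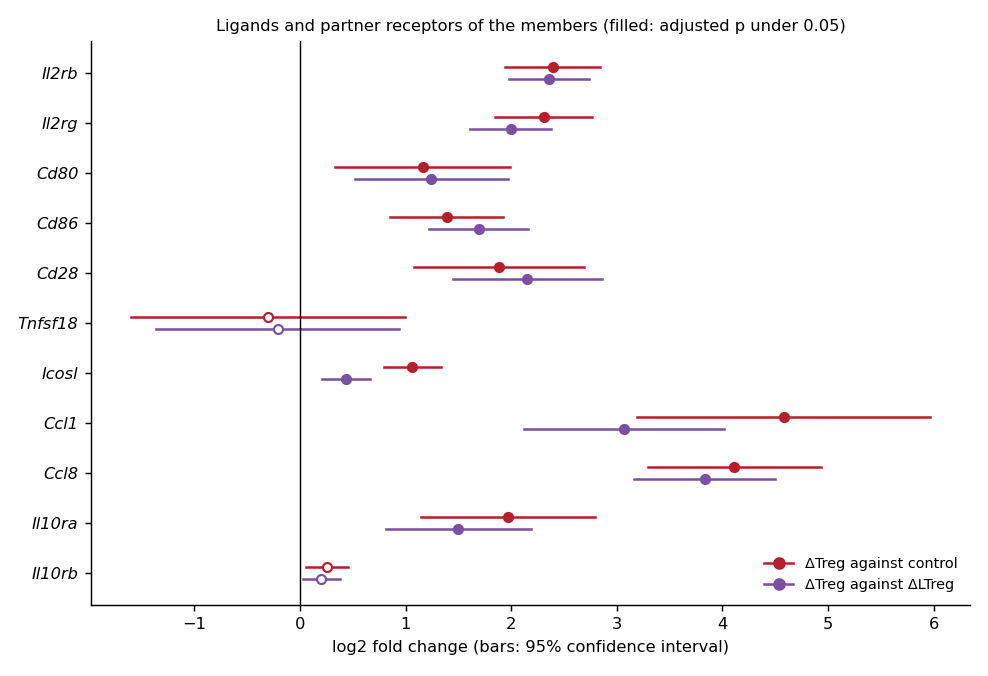
log2 fold change (x axis) with 95% confidence intervals for the 11 ligand and partner-receptor genes tested, in ΔTreg against control (red) and against ΔLTreg (purple), filled where the edgeR adjusted p was under 0.05. The chemokine genes Ccl1 and Ccl8 lie furthest to the right, and Tnfsf18 and Il10rb are open in both comparisons.

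No member passed the test against control after either of the shorter DT courses. In ΔLTreg against control 0 of 10 members were called by edgeR, and 0 by DESeq2, while 4.55% of all genes tested were called in either direction. At an unadjusted p under 0.05 there were 3 of 10 members, beside 20.2% of all genes tested, namely Ikzf2 (1.48-fold, 95% confidence interval 1.17 to 1.86, adjusted p = 0.0624), Tnfrsf18 (1.31-fold, 1.11 to 1.55, adjusted p = 0.0690) and Il10 (at least 1.39-fold, adjusted p = 0.178). For these 3 genes, and for Tnfrsf4 (1.17-fold), every ΔLTreg mouse lay above both control mice, as was so for 15% of all genes tested. Without the filter on low counts Ikzf2 and Tnfrsf18 were called (adjusted p = 0.00813 and 0.0486). In ΔETreg against control no member was called by edgeR or DESeq2 and 0.00544% of all genes tested were called. There 1 of 10 members had an unadjusted p under 0.05, beside 4.75% of all genes tested. That member was Tnfrsf4, at 2.96 CPM ± 0.0665 (SD, n = 3) in ΔETreg against 2.14 ± 0.0105 (n = 2) in control (1.38-fold, 1.09 to 1.74, adjusted p = 1.00). Between the shorter windows, ΔETreg against ΔLTreg, 1 member was called beside 6.38% of all genes tested. This was Tnfrsf18, at 0.741-fold (0.640 to 0.858, adjusted p = 0.0254), and ages differed between those groups. The call was lost without ΔETreg mouse 1 or 2, without ΔLTreg mouse 1 or 3 and in a fit of these 2 groups alone, with adjusted p between 0.0552 and 0.113. Ikzf2 (0.797-fold) and Ikzf4 (log2 0.59) also had an unadjusted p under 0.05 there, as did 22.7% of all genes tested, and their adjusted p-values were 0.169 and 0.190.

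ΔTreg mice also stood apart from ΔETreg mice, which had received the first 2 of the same 4 doses and were harvested 4 days younger. In that comparison 7 members were called higher, beside 13.2% of all genes tested. Icos and Il10, which are among the 7, were tested only because of the ΔTreg libraries. Icos was at 17.4-fold, Il2ra at 5.87-fold, Ccr8 at 3.79-fold, Tnfrsf18 at 1.99-fold, Tnfrsf4 at 1.71-fold and Ikzf2 at 1.63-fold, with adjusted p-values from 1.56e-05 to 0.00343, and Il10 was at least 3.30-fold higher (adjusted p = 0.00724). Foxp3 was at 1.14-fold (0.724 to 1.79). The comparisons of ΔTreg with the other groups share its 3 mice. Taking all 11 libraries, 7 members were higher in every ΔTreg mouse than in every other mouse, as were 12.9% of all genes tested.

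T cell transcripts rose in the same ΔTreg mice. The 16 T cell markers summed to between 93.8 and 121 CPM in ΔTreg, against 27.2 to 29.7 in control, 25.7 to 29.3 in ΔETreg and 29.5 to 35.05 in ΔLTreg. Of the 16, 15 were called higher than in control and none lower, where 12.1% of all genes tested were called higher. Cd4 went from 41 and 22 counts in control to 169, 253 and 331 (7.13-fold, adjusted p = 0.000166). Cd8a went from 0 and 2 to 238, 236 and 296 (at least 78.3-fold higher, adjusted p = 6.74e-06). Cd8b1 was at least 34.8-fold higher, Trac, the constant gene of the T cell receptor alpha chain, 31.5-fold and Cd3e 2.95-fold. Cytotoxic genes moved with them, and all 5 of those listed were called higher. Their summed level was 40.1 to 42.3 CPM in ΔTreg and 1.93 to 2.27 in control. Gzmb (granzyme B) was at least 230.2-fold, Prf1 (perforin) 7.32-fold and Nkg7 7.63-fold higher. Cd8a, Cd8b1, Gzmb and others of the cytotoxic list were at or near the floor outside ΔTreg. They passed the filter on low counts only through the ΔTreg libraries, so a difference for them was built into their being tested. Macrophage markers summed to between 334 and 467 CPM against 127 to 145, with Mrc1 at 4.10-fold, C1qa at 4.64-fold and Cd68 at 2.38-fold, all 3 called higher. In bulk tissue more cells of a type and more RNA per cell cannot be told apart, nor can fewer cells and less RNA, and the part that each cell type had in the members' levels was not tested.

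Set against these T cell transcripts within the same library, Foxp3 had lower ratios in every ΔTreg mouse than in any other mouse. Foxp3 counts were divided by the summed counts of Cd3d, Cd3e and Cd3g, which encode chains of the T cell receptor complex. The CD3 sums were 252 and 291 in control and 728, 877 and 960 in ΔTreg. Per 100 CD3 counts there were 7.94 and 4.81 Foxp3 counts in control. ΔETreg mice had 3.97, 4.85 and 3.89, ΔLTreg mice 4.77, 3.71 and 3.36, and ΔTreg mice 1.24, 2.17 and 1.88. All 3 ΔTreg mice lay below the other 8, and the mean log2 ratio differed by -1.84 from control and -1.18 from ΔLTreg. Both comparisons gave p = 0.1 in a two-sided exact permutation test, the smallest value these group sizes allow, so the design could not reach 0.05. The T cell transcripts used as denominators had themselves risen in ΔTreg. A gene unchanged per library would therefore also have lower ratios there, and the ratios do not show a fall of Foxp3 itself. Per 100 Cd4 counts the contrast was wider, with 48.8 and 63.6 in control, 61.9 to 81.3 in ΔLTreg, 26.3 to 68.8 in ΔETreg and 5.33 to 7.51 in ΔTreg. After the shorter DT courses the differences from control were -0.66 in ΔLTreg and -0.54 in ΔETreg per CD3 count (exact permutation p = 0.2 for each), -0.02 and -0.19 per T cell receptor constant-gene count, and 0.33 and -0.45 per Cd4 count. The direction in ΔLTreg thus turned with the denominator.

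**Figure D4:**
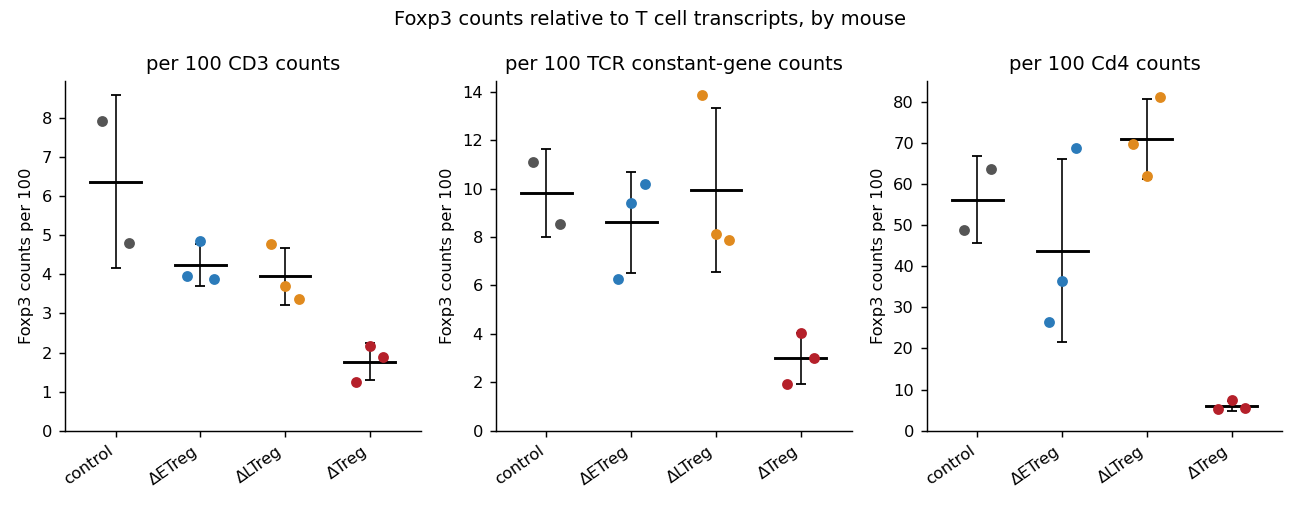
Foxp3 counts per 100 counts of CD3 genes (left), of the T cell receptor constant genes Trac, Trbc1 and Trbc2 (middle) and of Cd4 (right) in each mouse (y axis, from 0), by group. Points are mice, lines are means and whiskers are SDs. The 3 ΔTreg mice are the lowest in each panel, between 1.24 and 2.17 per 100 CD3 counts and between 5.33 and 7.51 per 100 Cd4 counts.

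The same scaling split the other members. Per 100 CD3 counts Icos was at 2.78 and 2.06 in control and 13.2, 10.8 and 9.90 in ΔTreg (4.38-fold), and Il2ra at 6.35 and 1.37 in control and 12.6, 9.35 and 9.38 in ΔTreg (3.27-fold). ΔTreg mice lay above both controls for these 2 genes and for Il10. Il10 had 1 count in each control mouse, and Icos and Il10 passed the filter on low counts only through the ΔTreg libraries. Ikzf2 (0.674-fold), Ikzf4 (0.619-fold) and Tnfrsf18 (0.675-fold) were lower per CD3 count in every ΔTreg mouse than in either control, although all 3 had higher mean levels per library (Ikzf4 without passing the test). Per Cd3e count alone Ikzf2 overlapped between the groups (0.636-fold). Tnfrsf18, for example, was at 108 and 82.8 per 100 CD3 counts in control and at 63.0, 75.0 and 55.3 in ΔTreg. Tnfrsf4 (0.818-fold), Ctla4 (0.626-fold) and Ccr8 (1.89-fold) overlapped between the groups. Per Cd4 count Icos (1.73-fold) and Il2ra (1.29-fold) overlapped control as well. A gene that rose less per library than the CD3 genes also has a lower ratio per CD3 count in ΔTreg. The share of all genes with lower or higher ratios was not computed. These ratios carry no test beyond that of Foxp3, and they show that members and T cell genes changed unequally, not which cells held the transcripts.

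**Figure D5:**
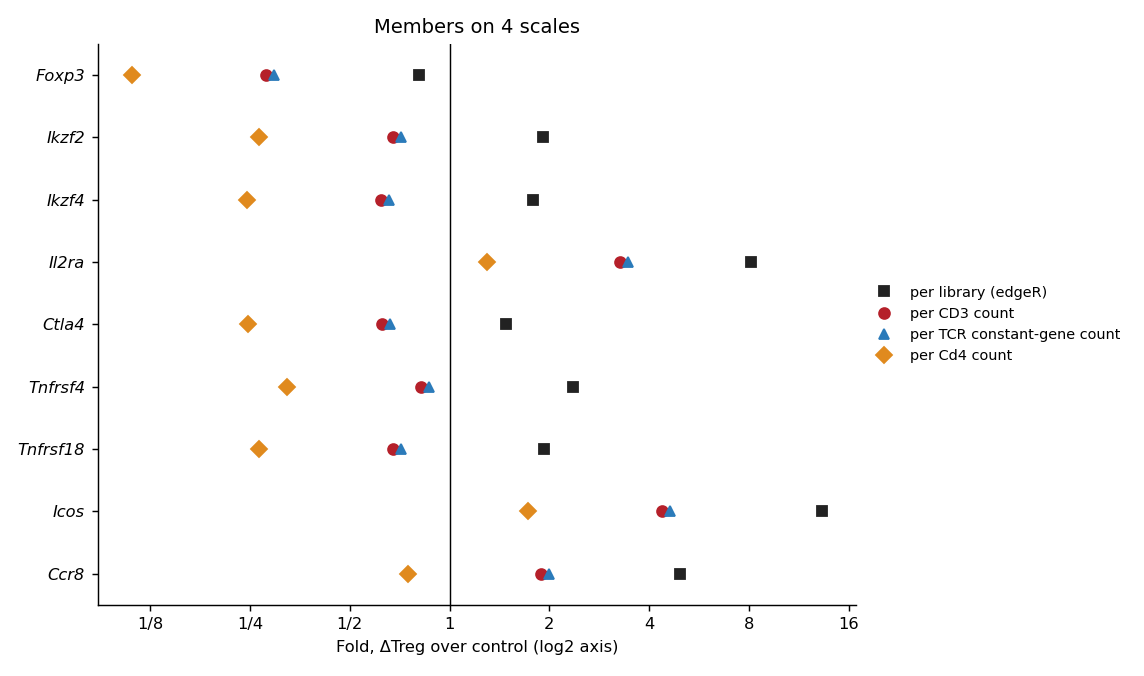
Fold of ΔTreg over control (x axis, log2 scale) for each member on 4 scales, per library as fitted by edgeR (black squares), per CD3 count (red), per T cell receptor constant-gene count (blue) and per Cd4 count (orange). Icos and Il2ra stay above 1 on all 4 scales, Foxp3 is below 1 on all 4, and Ikzf2, Ikzf4, Ctla4, Tnfrsf4 and Tnfrsf18 are above 1 only per library. Il10 is left out because control skin was at the floor.

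Levels were compared between genes per exon length, in RPKM, which scales counts to exon length and library size. GITR and OX40 transcripts led in every group. In control skin Tnfrsf18 was at 6.29 RPKM ± 0.0183 (SD, n = 2), Tnfrsf4 at 1.57 ± 0.00767 and Ikzf2 at 0.496 ± 0.0615, each separated from its neighbour by more than their SDs. Ikzf4 (0.232), Ccr8 (0.200), Foxp3 (0.137), Ctla4 (0.123), Icos (0.0706), Il2ra (0.0630) and Il10 (0.0286) followed, and no neighbours among these 7 differed by more than the sum of their SDs. In ΔTreg skin Tnfrsf18 (12.2 RPKM ± 1.21, n = 3) and Tnfrsf4 (3.71 ± 0.462) kept their places, Ccr8 (1.05 ± 0.248), Icos (0.960 ± 0.209) and Ikzf2 (0.953 ± 0.0185) came next without separation, and Foxp3 was the lowest of the 10 at 0.110 ± 0.0220. Icos moved from rank 8 to rank 4 and Foxp3 from rank 6 to rank 10.

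Promoter windows bear on members that moved together, and RefSeq (GRCm38.p6) gave windows for 6 of the 10 members, Foxp3 with 2. These RefSeq starts can differ from the gene positions given above. The windows of Foxp3 and Ctla4 lie inside those positions, and the windows of Tnfrsf18 and Ccr8 reach past the first base given there. The 250 bases before each start were searched on both strands for the AP-1 motif TGANTCA, the STAT motif TTCNNNGAA and the NF-kB motif, which answer to T cell receptor, IL-2 and TNF receptor signals in activated T cells. Il2ra, called higher in ΔTreg, held overlapping NF-kB matches starting 201 and 200 bases before its start. Tnfrsf18, also called higher, held a STAT match 99 bases before its start, and 1 of the Foxp3 windows held a STAT match at 139 bases. Tnfrsf4, called higher with its neighbour, held none of the 3, and neither did Ctla4, Ccr8 or the other Foxp3 window. Over all 32851 windows of this length 9.55% held the NF-kB motif, 7.02% the STAT motif and 6.75% the AP-1 motif. The 4 windows are given 5′ to 3′ on the plus strand, with matches in capitals, to set Il2ra, Tnfrsf18 and Tnfrsf4, which rose, beside Foxp3, which passed no threshold.
Il2ra, chr2:11642542-11642791: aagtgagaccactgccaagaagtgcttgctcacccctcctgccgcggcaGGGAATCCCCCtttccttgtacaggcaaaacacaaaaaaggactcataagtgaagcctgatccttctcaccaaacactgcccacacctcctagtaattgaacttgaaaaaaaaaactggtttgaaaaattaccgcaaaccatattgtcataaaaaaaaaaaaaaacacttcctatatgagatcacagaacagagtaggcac
Tnfrsf18, chr4:156026072-156026321: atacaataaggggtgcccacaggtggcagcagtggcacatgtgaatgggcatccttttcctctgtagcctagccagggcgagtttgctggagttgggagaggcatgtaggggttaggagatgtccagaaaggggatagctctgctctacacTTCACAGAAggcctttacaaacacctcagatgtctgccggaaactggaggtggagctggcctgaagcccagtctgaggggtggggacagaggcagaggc
Tnfrsf4, chr4:156013445-156013694: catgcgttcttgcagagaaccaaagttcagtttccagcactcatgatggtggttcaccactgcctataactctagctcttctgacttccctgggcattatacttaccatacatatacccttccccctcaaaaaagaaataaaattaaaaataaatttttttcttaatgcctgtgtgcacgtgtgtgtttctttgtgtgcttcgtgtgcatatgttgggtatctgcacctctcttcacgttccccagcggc
Foxp3, chrX:7580233-7580482: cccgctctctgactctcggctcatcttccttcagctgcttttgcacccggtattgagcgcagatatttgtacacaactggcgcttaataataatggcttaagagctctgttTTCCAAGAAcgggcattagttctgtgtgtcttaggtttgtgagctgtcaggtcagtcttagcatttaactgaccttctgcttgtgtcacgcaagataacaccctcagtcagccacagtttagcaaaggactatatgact

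The genes that tracked each member across the 11 libraries were also listed. Among members with a mean count of at least 50, the genes whose log2 CPM followed each most closely were named, as a description over libraries that share groups and depth. Tnfrsf18 was nearest to Hyal1 (Pearson r = 0.996), Pecam1 (0.982) and Slc16a3 (0.982). Tnfrsf4 was nearest to Relb (0.978), Il6 (0.976) and Nfkb2 (0.973), where Relb and Nfkb2 encode NF-kB subunits. Ikzf2 was nearest to Sphk1 (0.977), Nuak1 (0.971) and Rgs11 (0.969), and Ikzf4 to Arrdc4 (0.936), Gm12715 (0.930) and Snx18 (0.927). None of these is a T cell receptor gene, and Pecam1 is an endothelial marker.

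A wider list of genes that Tregs express, many of them shared with skin cells or other lymphocytes, was counted in the same way. Of 20 genes listed 19 were analysed here, 17 were tested, of which ΔTreg skin had 10 above and 1 (Nt5e, 0.827-fold) below control by the test, with 11 above and none below ΔLTreg. Over all genes tested, 12.1% were called higher than control and 10.7% higher than ΔLTreg. The integrin gene Itgae (2.47-fold, adjusted p = 2.17e-05), the ectonucleotidase gene Entpd1 (2.11-fold, adjusted p = 7.40e-05) and Tnfrsf9, which encodes the costimulatory receptor 4-1BB (11.8-fold, adjusted p = 0.000233), had the smallest p-values. Among 7 lineage-determining regulators 5 were called higher, led by Tbx21 (T-bet, at least 16.7-fold higher), Eomes (at least 7.29-fold higher) and Bcl6 (1.78-fold), with adjusted p-values of 1.33e-05, 0.00132 and 0.000327. T-bet and Eomes are the regulators of type 1 and cytotoxic T cell programmes. Tbx21 was at the floor in control and ΔETreg and at 0.253 CPM in ΔLTreg. Eomes, and some genes of the wider list that were called higher, were at or near the floor outside ΔTreg. They passed the filter on low counts only through the ΔTreg libraries, so a difference for them was built into their being tested.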

How the data were processed

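Whole skin of 11 mice gave 1 library per mouse. Per the labels and the study's methods, the authors used Trimmomatic 0.36, then STAR 2.5.2b against GRCm38, and counted uniquely mapped exonic reads with featureCounts (Subread 1.5.2). They deposited raw counts for 49315 genes. The strand setting and annotation release are not given in the sources used here. Groups came from the treatment labels, and replicates differed by more than sampling noise (median chi-square 1.02 to 3.52, 0.455 expected).

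The edgeR package (4.0.16, R 4.3.3) was applied to the counts with filterByExpr by group (18375 genes kept), TMM scaling and 1 quasi-likelihood model of the 4 groups. The 6 pairs of groups were tested, with Benjamini-Hochberg adjustment over all genes tested and a threshold of 0.05. SE is the log2 change over the square root of F. A group with 3 or fewer counts in every library was at the floor. Foxp3 ratios (0.5 added to each count) were tested by exact permutation. Positions and exon lengths are from GENCODE M21, which held 48970 of the IDs. Alternatives were DESeq2 1.42.0, 2 groups only, other scalings and filters, sex as a covariate and leaving single mice out. The fits were tested on simulated data.

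The members and lists were chosen with earlier results of these data known. The text names all members, their ligands and partner chains, Cd3e, Cd4, Cd8a, the 3 genes of each other list with the smallest p in ΔTreg against control, and the 3 genes most correlated with each member of mean count 50 or more. Bcl2, Ikzf5, Nt5e, Il1rl1 and Rora were named outside that rule, after their values were seen.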

Additional observations from a re-analysis of the deposited data

Results flagged for a closer look

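Tnfrsf18, the GITR gene, was the single member whose change from control differed between the early and the late DT window by a direct test. ΔETreg and ΔLTreg differed by -0.43 on the log2 scale (SE 0.10, edgeR adjusted p = 0.0254), since ΔETreg was at -0.04 and ΔLTreg at 0.39 against control. All 3 ΔETreg mice, at 8.81 to 10.1 CPM, lay below all 3 ΔLTreg mice, at 11.4 to 13.4 CPM. The call was lost without ΔETreg mouse 1 (adjusted p = 0.0895) or 2 (0.113), without ΔLTreg mouse 1 (0.0657) or 3 (0.0552), and in a fit of these 2 groups alone (0.0605). Muscle transcripts summed to 1306 to 4166 CPM in ΔLTreg and 902 to 1511 in ΔETreg, and harvest days differed (P9 and P13). Their part in the difference was not tested.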

How the results depend on the processing

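The 7 members called higher in ΔTreg became 4 against control, 3 against ΔLTreg and 3 against ΔETreg when at least 10 counts were required in every library, because fewer members were then tested. Under the other alternatives the counts stayed within 6 to 8, 6 to 7 and 6 to 7. Without the filter 2 members (Ikzf2 and Tnfrsf18) were called in ΔLTreg against control. In a fit of 2 groups only 0 were called between ΔETreg and ΔLTreg, and leaving out 1 mouse gave 0 to 1. Leaving out 1 mouse gave 6 to 8 members called against control, 5 to 7 against ΔLTreg and 6 to 7 against ΔETreg. Foxp3 per T cell transcript changed sign in ΔLTreg against control with Cd4 as denominator (0.33). Per CD3 count, leaving out 1 mouse gave -2.19 to -1.49 (ΔTreg against control), -1.35 to -0.96 (ΔTreg against ΔLTreg), -1.01 to -0.30 (ΔLTreg against control) and -0.89 to -0.18 (ΔETreg against control).

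Signs also changed with 1 mouse left out, for values that passed no threshold. These log2 changes ranged from -0.059 to 1.84 for Ctla4 in ΔTreg against control and from -0.24 to 0.16 for Foxp3 in ΔTreg against ΔLTreg. In ΔLTreg against control they ran from -0.39 to 0.11 (Ikzf4), -1.05 to 0.85 (Ctla4), -0.13 to 0.51 (Icos) and -0.25 to 1.27 (Ccr8). In ΔETreg against control they ran from -0.13 to 1.66 (Il2ra), -1.50 to 0.39 (Ctla4) and -0.14 to 1.37 (Ccr8), and in ΔETreg against ΔLTreg from -0.48 to 0.069 (Il2ra), -0.83 to 0.17 (Ctla4) and -0.12 to 0.59 (Ccr8). Outside the members the same held in ΔTreg against control for Tnfsf18 (-0.49 to 0.18), Cd79a (-0.57 to 1.36) and Fabp4 (-0.32 to 0.058), and against ΔLTreg for Tnfsf18 (-0.37 to 0.27) and Tcrg-C1 (-0.12 to 0.055). The cause was not tested.

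Ikzf4 against control, at an adjusted p of 0.0517, passed the threshold with DESeq2 size factors (0.0489), without the filter (0.0156), with 10 counts in every library (0.0459), with sex as a covariate (0.0454), in 2 groups only (0.0399) and without ΔTreg mouse 3 (0.0394). Ikzf2 against ΔLTreg passed it without the filter, in 2 groups only and with DESeq2 (0.0359 to 0.0393), and Ctla4 against ΔETreg in 2 groups only (0.0100). With DESeq2 Il10 lost its call against ΔETreg (0.104). No paired analysis was possible because the labels give the mice no replicate numbers shared between groups. With 2 control mice and 20 or fewer control counts of Foxp3, Il2ra, Ctla4, Icos, Ccr8 and Il10, depth limits what could be resolved for these 6 members.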

Other observations

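Other cell types of the skin were followed through short marker lists in ΔTreg against control. Of 5 type 2 lymphocyte genes 3 were called higher by edgeR, beside 12.1% of all genes tested. Il1rl1 (1.07-fold) and Rora (0.829-fold) were not called, and Rora was lower in every ΔTreg mouse than in either control. Il13 went from 8 and 4 counts to 152, 171 and 161 (24.2-fold, adjusted p = 1.58e-05), Il5 was at least 3.05-fold higher (adjusted p = 0.0217) and Gata3 was at 1.15-fold (adjusted p = 0.0419). The calls of Il5 without either control mouse and of Gata3 without any 1 mouse were lost. Il5 was at the floor outside ΔTreg and passed the filter on low counts only through the ΔTreg libraries. Of 5 dendritic cell genes Ccr7 (at least 12.5-fold higher, adjusted p = 0.000232) and Itgax (3.47-fold, adjusted p = 0.00115) were called higher and the Langerhans cell gene Cd207 lower (0.348-fold, adjusted p = 0.000251). Among 5 gamma-delta T cell genes Tcrg-C2 (3.13-fold) and Tcrg-C4 (2.09-fold) were called higher, and Tcrg-C1 (1.55-fold, adjusted p = 0.0502) was not.

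Of 8 skin genes 5 were called lower, among them the melanocyte genes Tyr (0.522-fold) and Dct (0.548-fold), and 1 higher (Krt14, 1.32-fold). Of all 18375 genes tested, 1726 were called lower and 2220 higher. Of 5 muscle genes Myh4 (log2 3.46) was called higher, and Ckm (1.84-fold) and Tnnt3 (1.31-fold) were not. Among mast cell, B cell and adipocyte genes edgeR called none and none had an unadjusted p under 0.05. These included Cpa3 (0.794-fold), Cd79a (1.04-fold), Cd79b (1.64-fold) and Fabp4 (0.908-fold). Fcer1a was also among them, with control skin at the floor. Its mean in ΔTreg was at least 2.38-fold higher, and the groups overlapped. With DESeq2 Cma1 (log2 -0.40, adjusted p = 0.0023), Plin1 (-1.30, 0.0070) and Adipoq (-1.19, 0.0105) were called lower.

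The 2 control mice differed most in the scarce shared members. Control mouse 1 had 16 Il2ra, 13 Ctla4 and 10 Ccr8 counts and control mouse 2 had 4, 3 and 3, while Tnfrsf4, Tnfrsf18 and Icos were nearly equal between them (2.14 and 2.15, 9.56 and 9.60, and 0.245 and 0.239 CPM). Xist and Ddx3y placed mouse 1 as female and mouse 2 as male, and with 1 mouse of each the part of sex was not tested. The labels give no harvest day for either mouse, and the part of age was not tested.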
